A study of Homo sapiens with 12 samples.

Results

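The genes described here are 9 transcription factors that act in keeping epithelial cells epithelial, out of 24916 Ensembl gene IDs measured. They were chosen by name, with earlier results of these data known. They are the grainyhead-like factors GRHL1 (ENSG00000134317), GRHL2 (ENSG00000083307) and GRHL3 (ENSG00000158055) and the OVO-like zinc finger proteins OVOL1 (ENSG00000172818) and OVOL2 (ENSG00000125850). The others are the epithelial ETS factors ELF3 (ENSG00000163435) and EHF (ENSG00000135373) and the Krüppel-like factors KLF4 (ENSG00000136826) and KLF5 (ENSG00000102554). All 9 IDs had a value on every array, and no filter on low values was applied. RNA was taken from SW480 ADH cells, a human colon carcinoma line derived as an adherent population of SW480, after 72 h in Dulbecco's modified Eagle's medium with 10% fetal bovine serum. The cells were mock transfected (Mock), or transfected with SPRY2 as the wild type (WT) or as the S112A or Y55F mutant, with 3 Affymetrix arrays for each of the 4 groups. SPRY2 encodes Sprouty2, an intracellular protein that restrains signalling from many receptor tyrosine kinases, and the mutants replace a serine with alanine or a tyrosine with phenylalanine. The labels do not give the vector, its promoter, or whether each construct was studied in 1 clone or a pool of cells.

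Epithelial cells hold their identity through a network of transcription factors. Grainyhead-like factors open and activate enhancers of junction genes such as those of E-cadherin and the claudins. OVO-like proteins are mostly repressors, and among their targets are ZEB1 and other genes that drive epithelial-mesenchymal transition, the loss of junctions and polarity. ELF3 and EHF are ETS factors found almost only in epithelia, and in the mouse intestine Elf3 is needed for normal differentiation. KLF4 and KLF5 bind similar GC-rich sites and have opposed places in the gut, where in the mouse Klf4 marks post-mitotic cells and goblet cell differentiation and Klf5 marks the dividing cells of the crypt.

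Promoter windows of 4 factors that passed a test against Mock are shown, so that the letters around their starts can be set beside their changes. The windows of KLF5, which also passed, and of GRHL3, which did not, are left out. RefSeq promoter windows on GRCh38.p14 run from 250 bases before to 50 bases after an annotated start and were at hand for 6 of the 9 genes, and not for GRHL2, OVOL1 or OVOL2. The windows of GRHL1 (chr2:9951443-9951742, plus strand), ELF3 (chr1:202010337-202010636, plus strand), EHF (the first of 2 starts, chr11:34624007-34624306, plus strand) and KLF4 (chr9:107489720-107490019, minus strand) are written 5′ to 3′ on the strand of the gene. Capitals mark matches on either strand to 6 short motifs. These were the E-box CACCTG that ZEB and SNAI factors bind, AACCNGTT of grainyhead factors, AGGAAG of ETS factors, GGGNGNGG of Krüppel-like and SP factors, CCGTTA of OVO-like factors and TGANTCA of AP-1.
GRHL1: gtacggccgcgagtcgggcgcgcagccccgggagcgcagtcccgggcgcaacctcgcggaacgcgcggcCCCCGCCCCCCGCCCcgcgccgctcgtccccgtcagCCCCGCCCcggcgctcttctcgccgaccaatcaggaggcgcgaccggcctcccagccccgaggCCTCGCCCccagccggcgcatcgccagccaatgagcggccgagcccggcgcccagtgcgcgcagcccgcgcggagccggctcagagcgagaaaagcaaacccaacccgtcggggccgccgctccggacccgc
ELF3: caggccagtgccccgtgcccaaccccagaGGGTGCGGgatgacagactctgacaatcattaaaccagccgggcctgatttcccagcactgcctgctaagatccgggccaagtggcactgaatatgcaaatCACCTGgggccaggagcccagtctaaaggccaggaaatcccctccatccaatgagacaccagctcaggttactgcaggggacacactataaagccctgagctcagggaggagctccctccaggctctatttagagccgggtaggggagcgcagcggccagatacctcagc
EHF: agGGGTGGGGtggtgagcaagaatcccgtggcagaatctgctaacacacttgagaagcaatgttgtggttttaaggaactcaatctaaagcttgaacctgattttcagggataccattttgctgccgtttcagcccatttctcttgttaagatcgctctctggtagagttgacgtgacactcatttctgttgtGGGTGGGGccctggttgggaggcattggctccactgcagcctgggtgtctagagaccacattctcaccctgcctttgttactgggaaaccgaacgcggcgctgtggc
KLF4: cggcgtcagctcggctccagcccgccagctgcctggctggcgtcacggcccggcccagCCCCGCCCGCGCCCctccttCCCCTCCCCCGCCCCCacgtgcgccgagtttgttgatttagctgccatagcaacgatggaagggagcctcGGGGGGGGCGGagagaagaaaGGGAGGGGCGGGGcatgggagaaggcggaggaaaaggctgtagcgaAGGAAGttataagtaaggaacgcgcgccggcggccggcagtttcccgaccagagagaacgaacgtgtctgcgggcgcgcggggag

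The windows were of unlike composition. GRHL1 held 52 CpG dinucleotides in its 300 bases, more than 99.2% of all 35116 windows, and KLF4 held 33, while ELF3 held 7 and EHF 8, against a median of 14. KLF4 held 10 matches to GGGNGNGG and GRHL1 held 5, some of which overlap each other. EHF held 2 and ELF3 held 1, and 56.2% of all windows hold at least 1. ELF3 held 1 CACCTG, 120 to 115 bases before the start, a motif in 20.6% of windows. KLF4 held 1 AGGAAG, 35 to 30 bases before the start, a motif in 33.6% of windows. Of the windows not shown, the first of GRHL3 held 2 CACCTG, 1 AGGAAG and 3 GGGNGNGG, and its second held 1 AGGAAG. Those of KLF5 held neither CACCTG nor AGGAAG, and the second of them held 3 GGGNGNGG. None of the 4 windows shown held AACCNGTT, CCGTTA or TGANTCA, which occur in 1.73%, 3.07% and 7.71% of windows. A match is only a run of letters, and binding was not measured.

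Against Mock, 4 of the 9 factors fell with wild-type SPRY2, 2 fell and 2 rose with S112A, and 3 fell with Y55F. The tests were made with limma across all gene IDs, with an adjusted p below 0.05 as the threshold. Among all gene IDs, 9.44% passed in WT, 13.0% in S112A and 16.1% in Y55F cells in either direction. The share that fell was 4.14%, 7.12% and 7.95%, and the share that rose was 5.30%, 5.88% and 8.18%. The arrays of the 2 groups did not overlap for 4, 5 and 5 of the 9 factors, as for 24.5%, 26.3% and 29.1% of all gene IDs. The 3 comparisons share the Mock arrays, so their results are not independent of each other. GRHL1 was lower with all 3 constructs, as were 0.586% of all gene IDs, and GRHL2, GRHL3 and OVOL1 passed in no comparison with Mock, as did 74.3%. OVOL2 fell with WT and Y55F, EHF with both mutants and KLF4 with WT. ELF3 fell with WT and rose with S112A, and KLF5 rose by a small margin with S112A, a call that was lost under 11 of 20 alternatives. The median log2 difference of the 9 factors was -0.35 in WT, 0.02 in S112A and -0.04 in Y55F cells, where the median of all gene IDs was 0.02, -0.01 and 0.00. The median size of the difference, whatever its sign, was 0.35, 0.17 and 0.18 for the 9 factors and 0.06, 0.07 and 0.08 for all gene IDs.

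**Figure D1:**
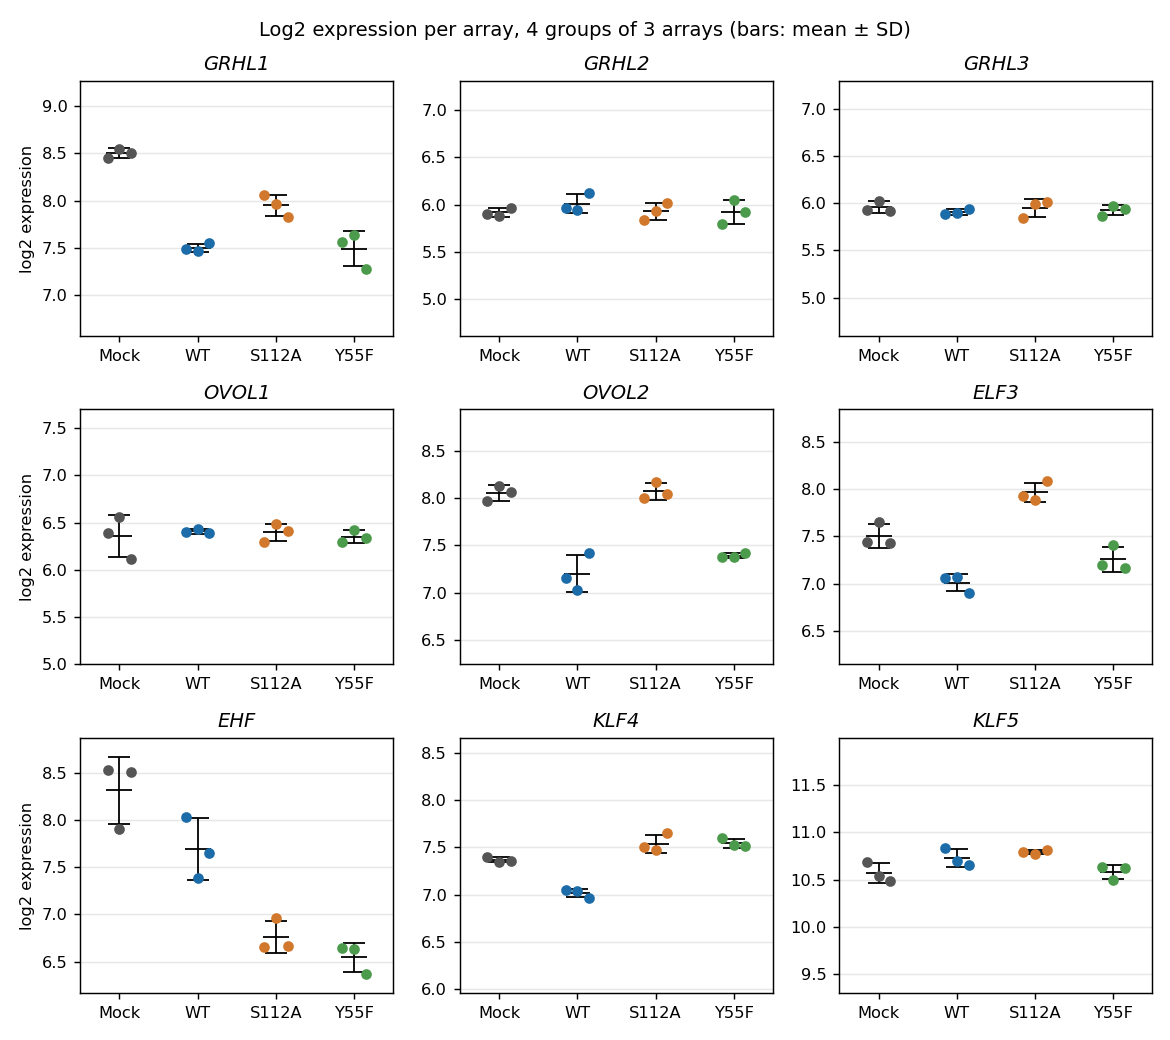
Log2 expression of the 9 factors on each array (points), with the mean and SD of the 3 arrays of each group (bars). Every panel spans the same number of log2 units, around its own level. GRHL1 is lower with each construct, OVOL2 is near 8 in Mock and S112A cells and between 7.03 and 7.42 in WT and Y55F cells, and the groups of GRHL2, GRHL3 and OVOL1 overlap.

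Of the grainyhead-like factors, only GRHL1 differed among the groups in the moderated F test, which asks whether any of the 4 group means differ. GRHL1 binds the same DNA motif as its paralogs and is known for its control of desmosome genes in the skin. Its log2 values were 8.45, 8.55 and 8.51 on the Mock arrays and 7.48, 7.47 and 7.55 on the WT arrays. They were 8.06, 7.96 and 7.83 in S112A cells and 7.56, 7.64 and 7.28 in Y55F cells. The Mock arrays stood above all others, the S112A arrays in the middle and the WT and Y55F arrays lowest, with no overlap between these 3 levels. The fall was 2.0-fold in WT cells, a log2 difference of -1.0 ± 0.09 (SE, limma adjusted p = 1.03e-05). It was 2.01-fold in Y55F cells with adjusted p = 8.27e-06 and 1.47-fold in S112A cells (limma adjusted p = 0.001). The S112A level was 1.36-fold above that of WT (limma adjusted p = 0.00242), and Y55F was 1.37-fold below S112A (limma adjusted p = 0.00255). Between Y55F and WT the log2 difference was -0.01, with a 95% interval from -0.20 to 0.18 and limma adjusted p = 0.974.

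GRHL2, which activates the E-cadherin gene and maintains the epithelial state in many carcinoma lines, stayed between 5.79 and 6.12 on all 12 arrays. GRHL3, known for the skin barrier and, in the mouse, for closure of the neural tube, stayed between 5.84 and 6.03. The groups of both overlapped in every comparison. The largest difference between 2 group means was 0.09 on the log2 scale for GRHL2 and 0.05 for GRHL3, and the F test gave adjusted p = 0.785 and 0.914 in limma. For WT against Mock the 95% interval ran from -0.07 to 0.26 for GRHL2 and from -0.18 to 0.07 for GRHL3. Both lie below the median of the array, 7.20 to 7.32, and the files give no detection call, so whether these probes report expressed RNA was not analysed here. A change in a transcript near background would be compressed.

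Of the OVO-like pair, OVOL2 passed the F test (limma adjusted p = 1.2e-05) and OVOL1 did not. OVOL2, a repressor of ZEB1 in several epithelia, read 7.97, 8.13 and 8.07 in Mock and 8.0, 8.17 and 8.04 in S112A cells. It read 7.15, 7.03 and 7.41 in WT and 7.37, 7.38 and 7.42 in Y55F cells. The Mock and S112A arrays thus overlapped at the higher level, and every WT and Y55F array lay below them. The fall from Mock was 1.81-fold in WT cells, a log2 difference of -0.86 ± 0.09 (SE, limma adjusted p = 4.21e-05), and 1.59-fold in Y55F cells (limma adjusted p = 0.000248). S112A cells differed from Mock by 0.02 on the log2 scale, with a 95% interval from -0.18 to 0.21 and limma adjusted p = 0.966. S112A cells stood 1.83-fold above WT cells (limma adjusted p = 1.47e-05), and Y55F cells 1.6-fold below S112A cells (limma adjusted p = 0.000152). Y55F cells were 0.19 above WT cells on the log2 scale, which missed the threshold (limma adjusted p = 0.173), and passed without WT replicate 3, the highest WT array, with a difference of 0.30 and adjusted p = 0.015 (0.015 to 0.533 over the alternatives). With array weights, OVOL2 was 0.16 above Mock in S112A cells (limma adjusted p = 0.0385), over a range of 0.0385 to 0.969. OVOL1, its paralog, known for the exit of skin cells from division, read between 6.12 and 6.56 in Mock and between 6.29 and 6.48 in the other 9 arrays. Its group means lay within 0.06 of each other, with adjusted p = 0.964 in the F test of limma, and its 95% interval for WT against Mock ran from -0.15 to 0.26.

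The epithelial ETS factors went opposite ways in S112A cells. ELF3, an activator of epithelial differentiation genes, read 7.44, 7.65 and 7.43 in Mock, 7.06, 7.07 and 6.90 in WT, 7.93, 7.89 and 8.08 in S112A and 7.20, 7.41 and 7.17 in Y55F cells. The 4 groups did not overlap on these arrays and stood in the order WT, Y55F, Mock and S112A from low to high. In WT cells ELF3 was 1.41-fold below Mock (log2 difference -0.49 ± 0.09, SE, limma adjusted p = 0.00246). In S112A cells it was 1.38-fold above Mock (0.46 ± 0.09, SE, limma adjusted p = 0.00323). S112A exceeded WT 1.94-fold (limma adjusted p = 5.66e-06) and Y55F 1.63-fold (limma adjusted p = 9.82e-05). Y55F lay between WT and Mock, and neither step passed the test. Its log2 difference from Mock was -0.24 (limma adjusted p = 0.0821), and 0.0323 without Y55F replicate 2, within a range of 0.0323 to 0.277 over the alternatives. Its difference from WT was 0.25 (limma adjusted p = 0.0653), within a range of 0.0171 to 0.234, and this passed under 5 of 20 alternatives, among them without Mock replicate 2 (adjusted p = 0.0476). That array is in neither group of this comparison, so the difference stayed at 0.25 and only the shared spread and the adjustment changed.

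EHF, the close relative of ELF3, had the largest range among the 9 factors. Its log2 values were 8.52, 7.91 and 8.51 in Mock and 8.03, 7.38 and 7.65 in WT cells. They were 6.66, 6.96 and 6.67 in S112A and 6.64, 6.63 and 6.37 in Y55F cells. Every array of the 2 mutants lay below every Mock and WT array, and the Mock and WT arrays overlapped. EHF fell 3.41-fold in Y55F cells, a log2 difference of -1.77 ± 0.18 (SE, limma adjusted p = 3.89e-05). In S112A cells it fell 2.94-fold, a log2 difference of -1.55 ± 0.18 (SE, limma adjusted p = 0.00014). It was also lower in Y55F cells than in WT, by a factor of 2.21 (limma adjusted p = 0.000824) and in S112A cells than in WT, by a factor of 1.91 (limma adjusted p = 0.00277). The mutants differed from each other by -0.21 on the log2 scale, with a 95% interval from -0.62 to 0.19 and limma adjusted p = 0.55.

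For WT against Mock, the log2 difference of EHF was -0.62 ± 0.18 (SE), which missed the threshold (limma adjusted p = 0.0566). The spread within these groups was wide, with SDs of 0.35 in Mock and 0.33 in WT cells, against 0.17 in S112A and 0.15 in Y55F cells. Replicate 2 was the lowest array in both groups. Arrays of the same number differed by -0.49, -0.52 and -0.86 on the log2 scale. With the replicate number as a random block the adjusted p was 0.0413 in limma, and with it as a fixed term 0.0513. Without Mock replicate 2 the difference was -0.83 with adjusted p = 0.00893, and without WT replicate 1 it was -0.80 with adjusted p = 0.021, in a range of 0.00251 to 0.219 over all alternatives.

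**Figure D2:**
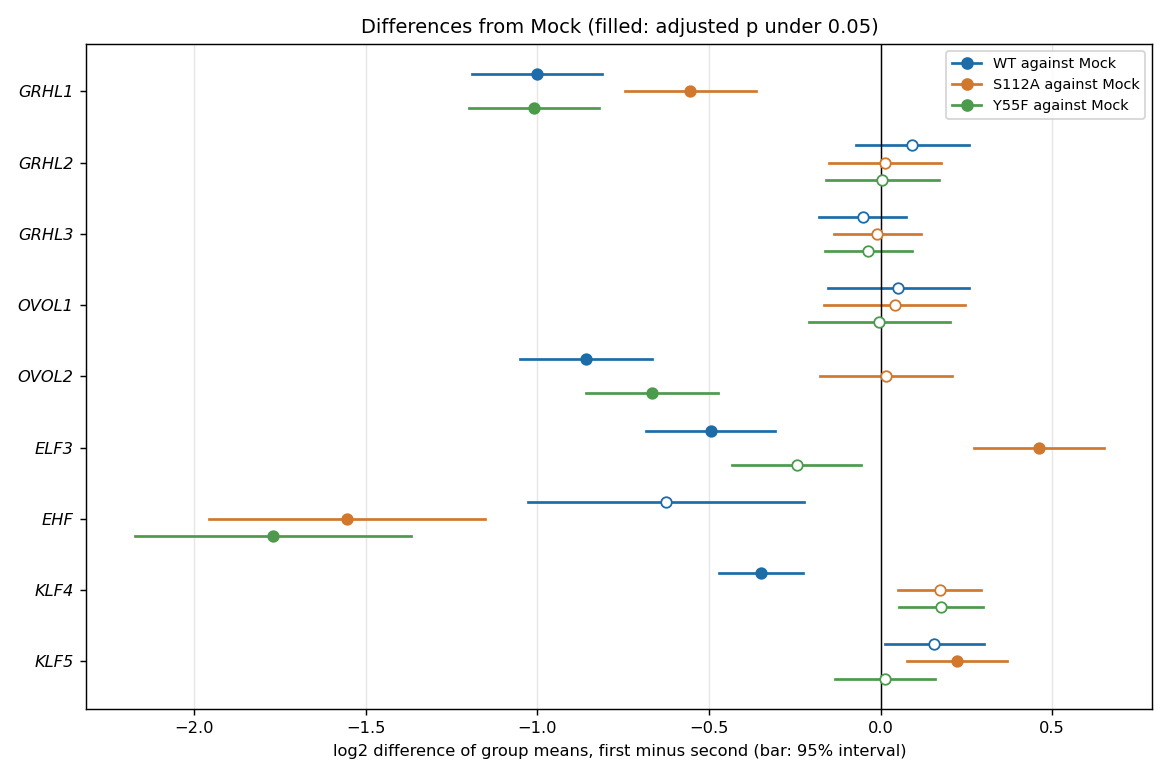
Log2 difference of each factor from Mock with WT, S112A and Y55F SPRY2 (x axis; bars are 95% intervals of limma, not adjusted for the number of genes). Filled points passed the adjusted p. GRHL1 lies to the left of 0 with all 3 constructs, ELF3 to the left with WT and to the right with S112A, and EHF farthest to the left with the 2 mutants.

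KLF4, a factor of differentiated gut epithelium, separated WT cells from both mutants. Its log2 values were 7.40, 7.35 and 7.36 in Mock, 7.05, 7.04 and 6.97 in WT, 7.50, 7.47 and 7.65 in S112A and 7.60, 7.52 and 7.51 in Y55F cells. The WT arrays were the lowest, the Mock arrays stood in the middle, and the arrays of the 2 mutants overlapped at the top. KLF4 fell 1.27-fold in WT cells, by 0.35 ± 0.06 (SE) on the log2 scale (limma adjusted p = 0.00134). S112A was 1.44-fold (limma adjusted p = 2.47e-05) and Y55F 1.44-fold (limma adjusted p = 3.67e-05) above WT. The log2 differences of S112A and Y55F from Mock were 0.17 and 0.18, with adjusted p = 0.069 and 0.0523 in limma, so that neither passed. Over the alternatives these ran from 0.0453 to 0.224 and from 0.0262 to 0.157. The S112A difference passed with array weights and the Y55F difference under 5 of 20 alternatives, among them without S112A replicate 3 (adjusted p = 0.0262). That array is in neither group of this comparison, so the difference stayed at 0.18 and only the shared spread and the adjustment changed. Between the mutants the log2 difference was 0.00, with a 95% interval from -0.12 to 0.13.

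KLF5, a factor of dividing crypt cells, changed least among the 6 factors that passed the F test. It read 10.68, 10.54 and 10.49 in Mock, 10.83, 10.70 and 10.65 in WT, 10.80, 10.77 and 10.81 in S112A and 10.63, 10.49 and 10.62 in Y55F cells. The S112A arrays stood above all Mock and Y55F arrays, and the other groups overlapped with Mock. KLF5 was 1.17-fold above Mock in S112A cells (limma adjusted p = 0.0473), and in Y55F cells it was 1.16-fold below S112A (limma adjusted p = 0.0457). Each of these calls was lost under 11 of 20 alternatives. The adjusted p ran to 0.173 for the first, without Mock replicate 3 (log2 difference 0.18), and to 0.172 for the second, without Y55F replicate 2 (-0.17). Without any 1 of S112A replicates 1, 2 and 3 both calls were lost as well, at 0.106, 0.0948 and 0.113 for the first and 0.105, 0.0872 and 0.105 for the second. The F test (limma adjusted p = 0.0489) was lost under 12 of 19 alternatives, with a range of 0.0225 to 0.107. The log2 difference of WT cells from Mock was 0.16 (limma adjusted p = 0.221), and that of Y55F cells 0.01 with adjusted p = 0.954.

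In the direct comparisons between constructs, S112A and WT cells differed in 5 of the 9 factors, where 21.0% of all gene IDs passed. GRHL1, OVOL2, ELF3 and KLF4 were higher in S112A cells and EHF was lower. Among all gene IDs 9.19% were higher and 11.9% lower. Y55F and WT cells differed in 2 factors, KLF4 (higher in Y55F) and EHF (lower in Y55F), where 19.2% of all gene IDs passed, 8.79% higher and 10.4% lower, so that the share of the 9 factors lay close to the background. Y55F and S112A cells differed in 4, GRHL1, OVOL2, ELF3 and KLF5, all lower in Y55F, where 18.9% of all gene IDs passed, 9.92% higher and 9.01% lower. The arrays did not overlap for 5 of the 9 factors between S112A and WT, 4 between Y55F and WT and 5 between Y55F and S112A, as for 33.6%, 31.5% and 29.4% of all gene IDs. Quantile normalizing again raised the count for Y55F and WT from 2 to 4 factors, with OVOL2 (adjusted p = 0.0454) and ELF3 (0.0211) added, where 20.4% of all gene IDs passed.

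**Figure D3:**
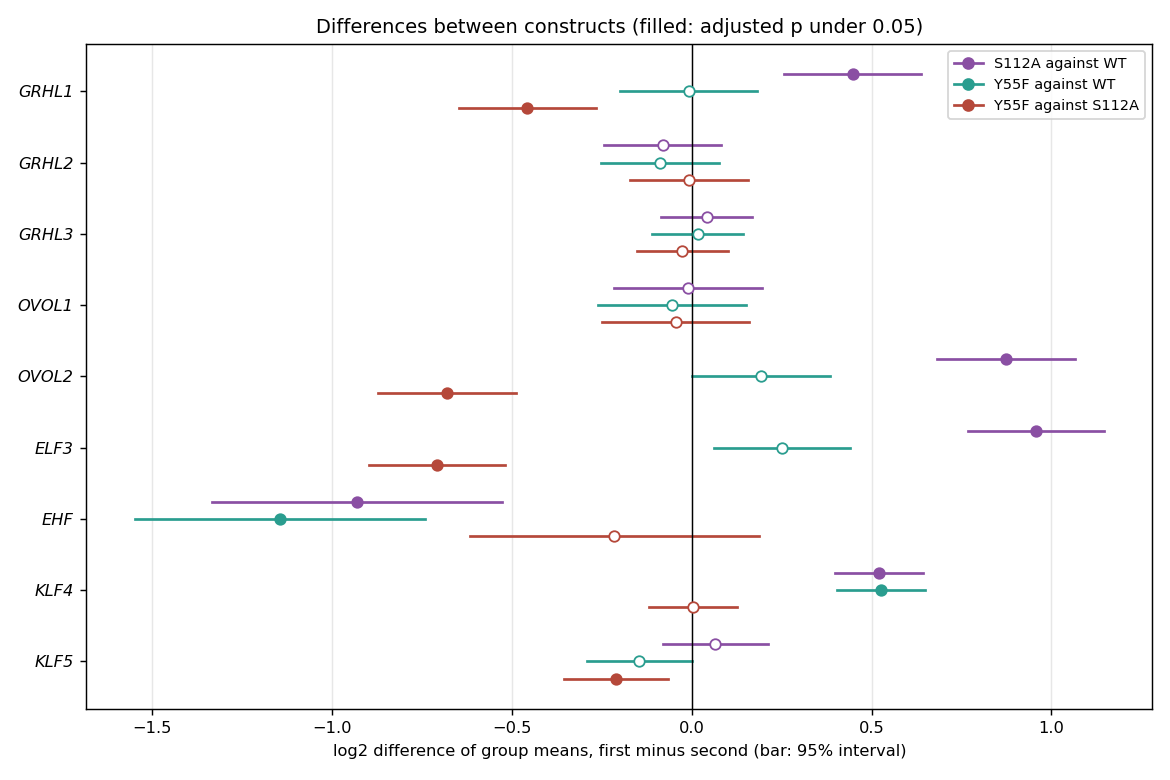
Log2 difference of each factor between pairs of constructs (x axis; bars are 95% intervals of limma, not adjusted for the number of genes). Filled points passed the adjusted p. S112A lies above WT for GRHL1, OVOL2, ELF3 and KLF4, and both mutants lie below WT for EHF.

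Over the 4 groups, 6 of the 9 factors differed in limma's F test, where 29.3% of all gene IDs passed. The highest and lowest group means of EHF lay 1.77 apart on the log2 scale, a range exceeded by 0.919% of all gene IDs. Those of GRHL1 lay 1.01 apart, of ELF3 0.96, of OVOL2 0.87 and of KLF4 0.53, exceeded by 3.45%, 3.92%, 4.82% and 13.6% of gene IDs. KLF5 had a range of 0.22, exceeded by 40.4%. GRHL2, OVOL1 and GRHL3 had ranges of 0.09, 0.06 and 0.05, exceeded by 73.8%, 89.8% and 91.2%. The median range was 0.53 for the 9 factors and 0.17 for all gene IDs, which include IDs with low values because no filter was applied. The largest range in a family was thus 1.01 for the grainyhead-like, 0.87 for the OVO-like, 1.77 for the ETS and 0.53 for the Krüppel-like factors, and the grainyhead-like and OVO-like families also held members whose range was smaller than that of most gene IDs. The difference between paralogs was not itself tested.

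**Figure D4:**
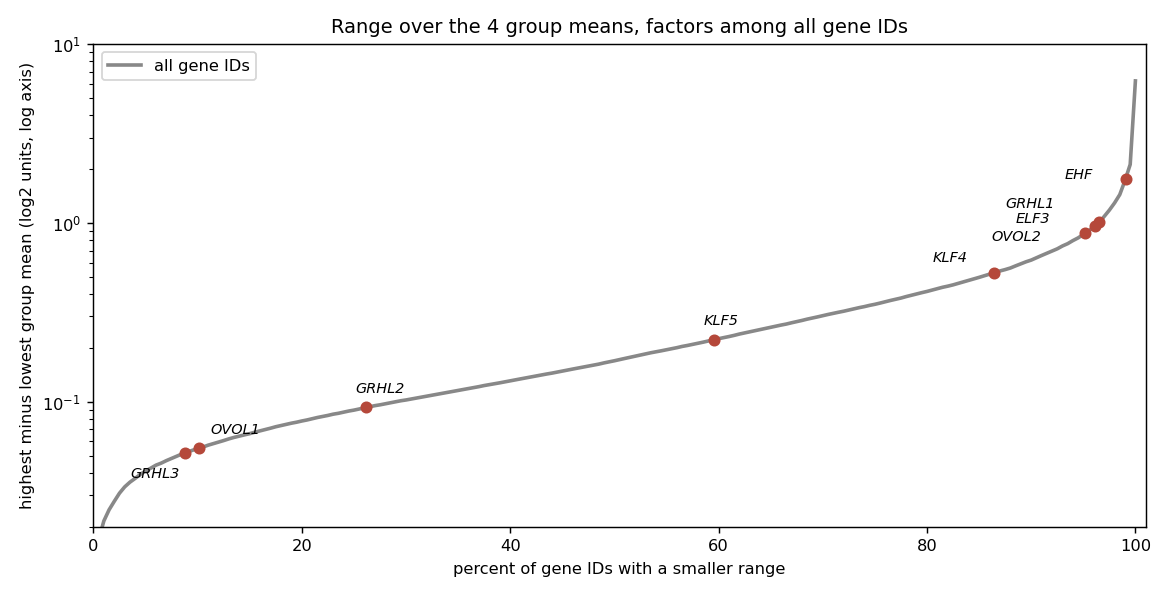
Highest minus lowest of the 4 group means in log2 units (y axis, log scale) against the percent of gene IDs with a smaller range (x axis), for all 24916 gene IDs (line) and the 9 factors (points). EHF, GRHL1, ELF3 and OVOL2 lie at the upper end, at ranges of 0.87 to 1.77, and GRHL3 and OVOL1 at the lower end.

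The factors followed no single pattern. OVOL2 and ELF3 shared the order WT, Y55F, Mock, S112A from the lowest mean to the highest, in which the steps from WT to Y55F did not pass, nor did that from Y55F to Mock for ELF3 or that from Mock to S112A for OVOL2. For GRHL1 the order was Y55F, WT, S112A, Mock, with the first step not past the threshold. For EHF it was Y55F, S112A, WT, Mock, with only the step from S112A to WT past it. For KLF4 it was WT, Mock, S112A, Y55F, with only the first step past it, and for KLF5 Mock, Y55F, WT, S112A, with no single step past it. As a description over the 12 arrays, which fall into the 4 groups and are not independent points, likeness between factors was highest for OVOL2 with GRHL1 (Pearson r = 0.82) and OVOL2 with ELF3 (0.82) and lowest for EHF with KLF4 (-0.55). The r of ELF3 with EHF was -0.26. The nearest gene IDs of the whole table had an r of up to 0.98 with OVOL2, and they are not named because nothing used here pairs their IDs with symbols.

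The array medians lay close together, at 7.20 to 7.32. The part of a difference that goes with them was -0.05 to 0.01 on the log2 scale over the 6 comparisons. Processing by RMA usually makes array distributions alike, so close medians do not show arrays of like quality. Array weights ran from 0.47 for S112A replicate 3 to 6.06 for S112A replicate 2. The root mean square SD within a group was 0.11 to 0.13. The arrays hold bulk RNA, so fewer cells that express a factor and less RNA per cell cannot be told apart. The level of SPRY2 itself, markers of colon epithelium and of other cell types, and the target genes of these factors were not analysed here, since their IDs could not be paired with symbols.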

How the data were processed

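The deposited table holds log2 expression, 1 value per gene ID and array, and was used as the authors made it. The submitters' processing notes name RMA and affy without versions. The array model, genome build and annotation are not given in the sources used here. RMA usually subtracts background, equalises the distributions of the arrays and combines probes, which leaves relative values and compresses changes of dim genes. The log2 scale was inferred from the range of 3.91 to 14.12. The number of arrays limits the precision, and no raw intensities were used.

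Groups and replicate numbers come from the sample titles. Per the labels there were 3 independent experiments with triplicates. They do not say what a replicate number marks, so p-values measure only the spread between arrays, part of which may be technical. All 12 arrays and 24916 IDs entered 1 fit of group means with limma 3.58.1 in R 4.3.3 (8 residual degrees of freedom, eBayes, two-sided). P-values were adjusted by Benjamini-Hochberg over all IDs within each comparison, and the F test likewise. Folds were computed from differences of mean log2 values. Where some groups varied more than others, as Mock and WT did for EHF, the shared spread understates their error. The fit was tested on simulated data with independent noise on every array and changes placed only in WT. That simulation held no spread that differs between groups and no link between arrays of the same number. It therefore cannot show how the fit handles either.

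All 9 factors are named. They, and the lists of target genes, EMT factors and cell markers, were chosen with earlier results of these data known. The symbols of the 9 IDs came with that choice. The RefSeq gene table used here pairs no Ensembl ID with a symbol, so the lists, the check of SPRY2 and the naming of similar genes were not run. The deviations of arrays with the same number from their group's mean correlated at 0.14, 0.46 and 0.36 for WT and Mock. For Y55F and S112A they correlated at 0.61, 0.12 and 0.40. The rule of a correlation above 0.1 in every pair was met in those comparisons only. Arrays of unlike number were not correlated, so meeting the rule does not show that the samples are paired. The rule was not met for S112A and Mock (0.09, 0.05 and -0.29) or for Y55F and Mock (0.08, 0.41 and -0.04). Nor was it met for S112A and WT (0.35, 0.04 and 0.06) or for Y55F and WT (0.24, 0.27 and 0.09). Any such pairing comes from the data and not the labels. The alternatives were a filter on low values, the 2 groups alone, 2 scalings, array weights, eBayes with trend and robust, replicate blocks, leaving out each array and a minimum of 1.5-fold. Promoter windows are RefSeq's, on GRCh38.p14.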

Additional observations from a re-analysis of the deposited data

Results flagged for a closer look

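ELF3 and KLF4 were flagged because, with 2 constructs, every array lay on opposite sides of all Mock arrays and the constructs differed from each other past the threshold. The share of all gene IDs that meet this rule was not counted. In single comparisons with Mock the arrays did not overlap for 24.5% (WT), 26.3% (S112A) and 29.1% (Y55F) of all gene IDs. For ELF3 all S112A arrays lay above Mock and all WT and Y55F arrays below it. The log2 difference was 0.96 for S112A against WT (limma adjusted p = 5.66e-06) and -0.71 for Y55F against S112A (limma adjusted p = 9.82e-05). For KLF4 all WT arrays lay below Mock and all arrays of both mutants above it, with log2 differences of 0.52 for S112A against WT (limma adjusted p = 2.47e-05) and 0.53 for Y55F against WT (limma adjusted p = 3.67e-05). Of the steps from Mock, those of ELF3 in Y55F cells and of KLF4 in both mutants did not pass on their own.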

How the results depend on the processing

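Of 54 differences (9 factors, 6 comparisons), none changed direction while called. The 20 calls on GRHL1, OVOL2, ELF3, EHF and KLF4 stayed past the adjusted p under each of the alternatives that set no minimum fold, with adjusted p of at most 0.0286 in limma, and both KLF5 calls were lost under 11 of 20. A minimum of 1.5-fold kept 12 of the 20. Of 32 differences that did not pass, 25 passed under no alternative. The filter on low values left out GRHL2 and GRHL3. In the order WT, S112A and Y55F against Mock, S112A against WT, Y55F against WT and Y55F against S112A, 4, 4, 3, 5, 2 and 4 factors passed. With the filter on low values 5, 4, 3, 5, 2 and 4 factors passed. Over all gene IDs it left 2319, 3182, 4043, 5049, 4758 and 4663 calls, of fewer IDs tested. Without the filter there were 2353, 3238, 4019, 5243, 4793 and 4716 calls, so the share over all gene IDs was higher with it. Requiring 1.5-fold, which can only lower a count, left 2, 1, 3, 3, 1 and 2 factors, and over all gene IDs (a count added after seeing the data) 711, 745, 901, 1634, 1153 and 1184, or 2.85%, 2.99%, 3.62%, 6.56%, 4.63% and 4.75%. Quantile normalizing again gave 4 factors in place of 2 for Y55F against WT, and 20.4% of all gene IDs in place of 19.2%, and the cause was not tested. Fits without 1 array gave 4 to 5, 3 to 4, 3 to 4, 5 to 5, 2 to 3 and 3 to 4, and 5 to 6 in the F test. Over all gene IDs they gave 1788 to 2481, 2467 to 3325, 3002 to 4282, 4351 to 5357, 3755 to 5083 and 3747 to 4762 in the same order. Array weights (5.31 for Mock replicate 1, 6.06 for S112A replicate 2) raised the counts over all gene IDs from 2353 to 4230 (WT and Mock), from 3238 to 9119 (S112A and Mock) and from 5243 to 8265 (S112A and WT). The cause was not tested. With the replicate block fitted as a fixed term the counts were 4, 4, 3, 5, 2 and 4, with no call changed, and 10.7%, 14.6%, 18.4%, 23.3%, 21.7% and 21.2% of all gene IDs passed. As a random block it gave 5, 4, 4, 5, 3 and 4, adding EHF in WT against Mock (0.0413), KLF4 in Y55F against Mock (0.0394) and ELF3 in Y55F against WT (0.0473), where 10.7%, 14.5%, 18.3%, 23.0%, 21.5% and 21.1% of all gene IDs passed. Signal over background was not analysed, which limits what the values of GRHL2, GRHL3 and OVOL1 show.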
